A study of Canis lupus familiaris with 10 samples.

Results

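The miR-18 and miR-19 seed families were represented by 4 mature canine miRNAs, cfa-miR-18a, cfa-miR-18b, cfa-miR-19a and cfa-miR-19b. They were chosen by name, as the listed miRNAs of these families, and make up 4 of the 320 miRNAs in the count table. All 4 had reads in each of the 10 libraries, and all 4 were among the 247 miRNAs that passed the filter on low counts. Mean levels were higher in lymphoma than in healthy nodes for all 4, by 2.66-fold to 3.89-fold, but with all libraries no member reached both an adjusted p under 0.05 and a change of at least 2-fold in the edgeR fit, the thresholds for a call. Within the libraries of lower base quality, which held 2 lymphomas and every healthy node, all 4 were called higher. The 2 lymphomas of that group were the highest of the 6 for cfa-miR-18a, cfa-miR-18b and cfa-miR-19a. With base quality as a covariate over all libraries, where the estimates rest on the same contrast, no member was called.

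Small RNA was sequenced from fresh frozen lymph nodes of dogs, 1 library per dog. The 6 DLBCL libraries came from client-owned patients of mixed breeds and sexes with diffuse large B-cell lymphoma, a tumour of mature B cells. Part or all of an affected node was removed by surgery under anaesthesia, and diagnosis rested on histology with immunostaining for B-cell markers, mostly CD79a, and absence of the T-cell marker CD3. The 4 healthy libraries came from young, female, purpose-bred hound crosses obtained from a vendor and euthanised in teaching laboratories. Antibiotics before referral are mentioned for 1 patient, and no age is given for the patients in the sources used here. The patients were of both sexes and the healthy dogs all female. Most patients were neutered, the neuter status of the healthy dogs is not stated, and age could not be compared between the groups. Diagnosis went together with origin, breed and the way the node was taken, and in part with sex. These cannot be told apart from diagnosis. RNA came from unsorted node tissue, so that more cells expressing a miRNA and more of that miRNA per cell cannot be told apart either.

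A miRNA guides silencing complexes to messenger RNAs mainly through its seed, bases 2 to 8, and miRNAs with the same seed form a family that shares most targets. The miR-17/92 cluster, also called oncomiR-1, is a polycistron that MYC activates and that is amplified in some human B-cell lymphomas. In mouse B-cell lymphoma its miR-19 members are known to carry much of the cluster's oncogenic activity. The miR-18 members have their own seed, close to that of miR-17, and are known for repressing SMAD and oestrogen receptor transcripts in other tissues. In the RefSeq genes of assembly UU_Cfam_GSD_1.0, MIR18A lay between MIR17 and MIR19A, and MIR19A between MIR18A and MIR20A. MIR19B-1 lay between MIR20A and MIR92A-1 in the same cluster. MIR18B lay in the related miR-106a-363 cluster, between MIR106A and MIR20B, and MIR19B-2 lay there between MIR20B and MIR92A-2. Reads of cfa-miR-19b therefore cannot be assigned to either cluster. The pairs 18a and 18b, and 19a and 19b, differ at only a few bases, so sequencing errors or loose matching could move reads between them, and their separate levels are uncertain to that extent.

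The DLBCL libraries held 10686441 to 25784861 miRNA reads and the healthy libraries 30432969 to 34709421. A single miRNA, miR-148a, took 17.8% to 39.0% of the reads in DLBCL and 51.5% to 73.6% in healthy nodes. Levels are given as CPM, read counts relative to library size, with library sizes adjusted by the trimmed mean of M values (TMM), and these factors ran from 0.698 to 2.03 in DLBCL and from 0.507 to 1.11 in healthy nodes. The median log2 fold change over all 247 miRNAs was 0.13 with TMM and 0.82 when total miRNA reads were used instead. The libraries DLBCL1, DLBCL2, DLBCL3 and DLBCL5 had a higher share of high-quality base calls in the study's read statistics than DLBCL4, DLBCL6 and the healthy libraries.

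The level of cfa-miR-18a, the only miR-18 gene of the miR-17/92 cluster, was 49.0, 45.2, 18.6, 107, 29.2 and 97.4 CPM in DLBCL1 to DLBCL6. It was 5.06, 12.3, 10.8 and 38.9 CPM in Healthy2 to Healthy5. The groups overlapped: DLBCL3 and DLBCL5 lay below Healthy5, which stood well above the other healthy nodes, while all 6 lymphomas were above the other 3 healthy nodes. On average DLBCL reached 57.7 ± 36.2 CPM (SD, n = 6), where healthy nodes had 16.8 ± 15.1 CPM (SD, n = 4). The log2 fold change was 1.78 (SE 0.69), with an adjusted p = 0.118 by edgeR's quasi-likelihood test. With 89 to 3931 reads per library, counting error was at most 10.6% of a value, far below the spread between dogs.

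Its sister cfa-miR-18b, encoded in the miR-106a-363 cluster, was the rarest member. Its level was 1.26, 2.78, 0.988, 4.62, 0.391 and 7.83 CPM in DLBCL1 to DLBCL6. In Healthy2 to Healthy5 it was 0.626, 0.587, 0.840 and 2.40 CPM. The lowest and the highest of all 10 values were both lymphomas, DLBCL5 and DLBCL6, and the 20.03-fold range within DLBCL exceeded the difference between the group means. Those means were 2.98 ± 2.82 CPM (SD, n = 6) and 1.11 ± 0.867 CPM (SD, n = 4), and the log2 fold change was 1.41 (SE 0.84, edgeR adjusted p = 0.280). The value of DLBCL5 rested on 6 reads, with a 95% exact Poisson interval of 2.20 to 13.1 reads, against 316 reads in DLBCL6. Such intervals cover counting error only, since copies made in PCR are not separate molecules.

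The level of cfa-miR-19a varied most among the lymphomas. It was 28.4, 22.8, 2.59, 86.4, 4.82 and 32.0 CPM in DLBCL1 to DLBCL6, and 1.65, 4.92, 3.89 and 19.8 CPM in Healthy2 to Healthy5. DLBCL1, DLBCL2, DLBCL4 and DLBCL6 were above every healthy node, whereas DLBCL3 and DLBCL5 lay within the healthy range. Within DLBCL the highest value was 33.4 times the lowest, and the coefficient of variation was 103% there and 109% in healthy nodes. Averages were 29.5 ± 30.4 CPM (SD, n = 6) for lymphomas and 7.56 ± 8.26 CPM (SD, n = 4) for healthy nodes. The log2 fold change was the largest of the 4 members at 1.96, but so was its standard error at 0.98 (edgeR adjusted p = 0.211).

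The most abundant member was cfa-miR-19b, which ranked 87th of the 320 miRNAs by mean level, ahead of cfa-miR-18a at 121, cfa-miR-19a at 141 and cfa-miR-18b at 211. Its level was 472, 249, 72.0, 622, 111 and 267 CPM in DLBCL1 to DLBCL6. The healthy nodes were closer together than for any other member, at 42.9, 97.6, 100.04 and 114 CPM in Healthy2 to Healthy5, a coefficient of variation of 35.3%. As for 18a and 19a, 4 lymphomas were above every healthy node, and DLBCL3 and DLBCL5 were not. Lymphomas averaged 299 ± 212 CPM (SD, n = 6) and healthy nodes 88.5 ± 31.2 CPM (SD, n = 4). The log2 fold change was 1.76 (SE 0.62, edgeR adjusted p = 0.109).

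**Figure D1:**
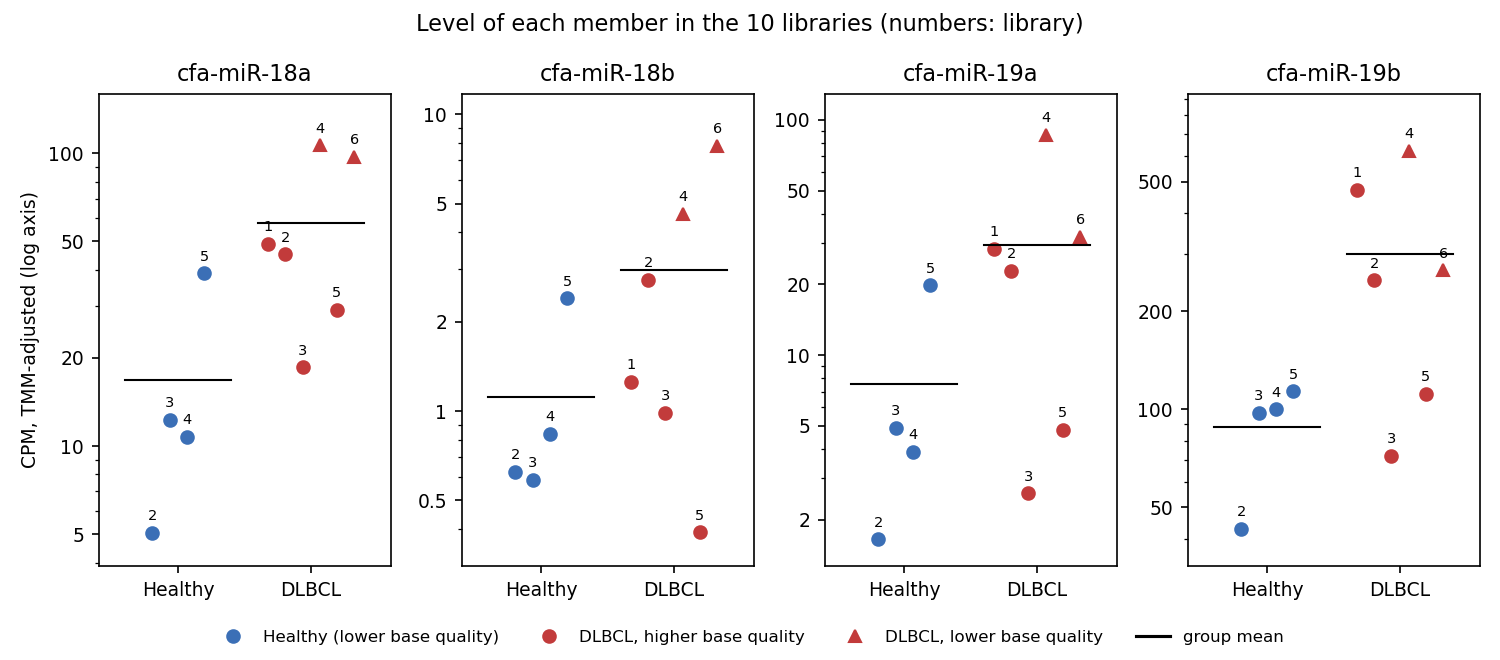
CPM (TMM-adjusted, log axis) of each member in the 4 healthy (blue) and 6 DLBCL (red) libraries, 1 point per library with its number, triangles for the 2 DLBCL libraries of lower base quality and a line at each group mean. Healthy5 is the highest healthy library in all 4 panels, DLBCL4 and DLBCL6 are the top 2 lymphomas for 18a, 18b and 19a, and the groups overlap in each panel.

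Read as families, the miR-18 sum ran from 19.6 to 111 CPM in DLBCL (median 49.1) and from 5.69 to 41.3 CPM in healthy nodes (median 12.3). The miR-19 sum ran from 74.6 to 709 CPM (median 286) and from 44.5 to 133 CPM (median 103). One member carried each family: cfa-miR-18a gave 92.6% to 98.7% of miR-18 reads in DLBCL and 89.0% to 95.5% in healthy nodes. Likewise cfa-miR-19b gave 87.8% to 96.5% of miR-19 reads in DLBCL and 85.2% to 96.3% in healthy nodes. Ligation efficiency differs between small RNA sequences and was not corrected, so the order of levels between miRNAs is an order of reads. All 4 members together were a small fraction of the library, 0.00776% to 0.143% of miRNA reads in DLBCL and 0.00254% to 0.0194% in healthy nodes.

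By edgeR 0 of the 4 members were called higher in DLBCL, beside 3.64% of the 247 miRNAs tested. At an unadjusted p under 0.05 with the same fold, cfa-miR-18a and cfa-miR-19b passed, beside 17% of all miRNAs. A log2 fold change above 1 without regard to p was seen for 4 of 4 members and for 27.1% of all miRNAs, and the median was 1.77 over the members and 0.13 over all. DESeq2 called 2 members, cfa-miR-18a (adjusted p = 0.0272) and cfa-miR-19b (adjusted p = 0.0217), where it called 12.6% of the miRNAs it tested higher. The limma voom fit with sample quality weights called 3, cfa-miR-18a (adjusted p = 0.00653), cfa-miR-19a (adjusted p = 0.0206) and cfa-miR-19b (adjusted p = 0.00788), beside 10.5%. The calls for 18a, 19a and 19b thus depended on the tool, while cfa-miR-18b was called by none of the 3. Complete separation, with every DLBCL library above every healthy library, was found for 0 members and for 6.88% of all miRNAs.

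Base quality offered a comparison within a technical group. The higher-quality group held lymphomas only, so a contrast could be made only in the lower-quality group, DLBCL4 and DLBCL6 against the 4 healthy nodes. There both lymphomas were above every healthy node for each member, and edgeR called all 4 higher, beside 11.6% of the 259 miRNAs tested. The log2 fold change was 2.59 (SE 0.68, adjusted p = 0.0345) for cfa-miR-18a and 2.45 (SE 0.71, adjusted p = 0.0368) for cfa-miR-18b. For cfa-miR-19a it was 2.95 (SE 0.84, adjusted p = 0.0368) and for cfa-miR-19b 2.32 (SE 0.48, adjusted p = 0.0159). Each of the 4 values was larger than with all libraries. DLBCL4 and DLBCL6 were, however, the top 2 of the 6 lymphomas for 18a, 18b and 19a, and ranked 1 and 3 for 19b. The lymphomas that remain were thus mostly the highest ones for these members, and the contrast cannot separate this from base quality. With base quality as a covariate over all 10 libraries the estimates were nearly the same, at 2.60, 2.47, 2.96 and 2.33, but none was called (edgeR adjusted p of 0.0819 to 0.148). With no healthy node of higher quality, these estimates again compare DLBCL4 and DLBCL6 with the healthy nodes. Their likeness was thus fixed by the design and is no second line of evidence. Whether the change itself differs between lymphomas of higher and of lower base quality was not tested.

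**Figure D2:**
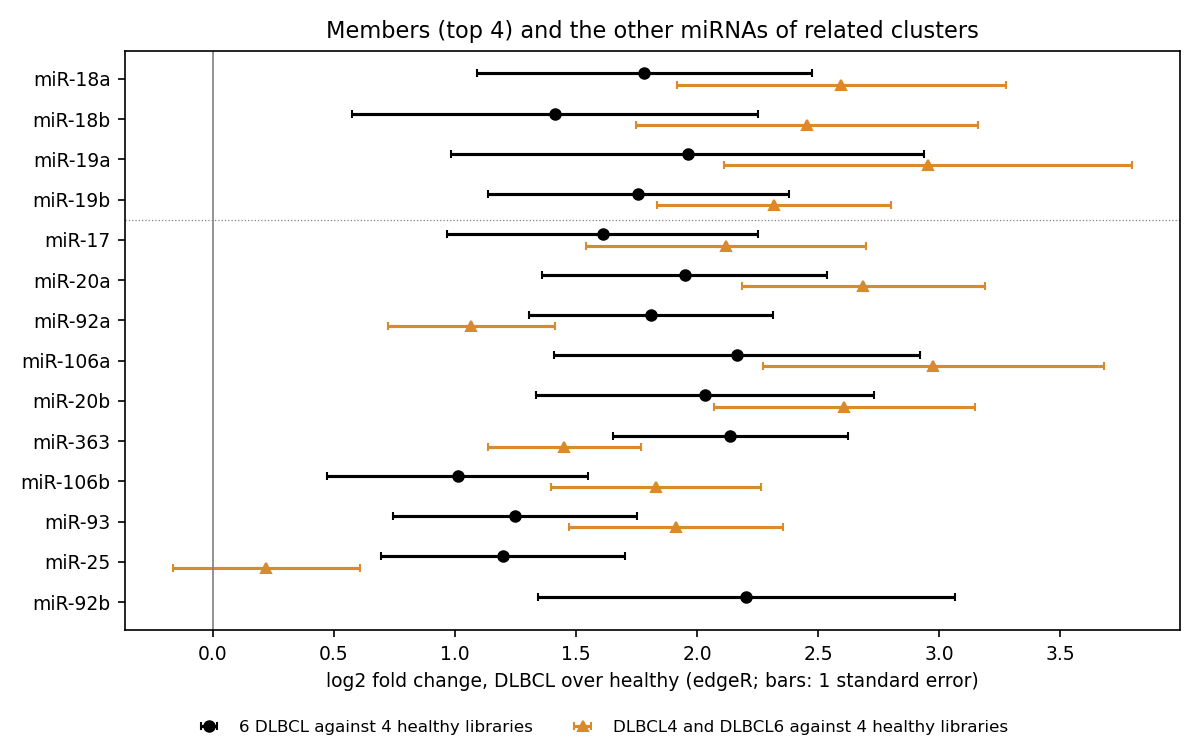
The log2 fold change of DLBCL over healthy (x axis, bars of 1 standard error, edgeR) for the 4 members and 10 related miRNAs, with all libraries (black circles) and within the lower base quality group (orange triangles). All members lie to the right of 0 in both fits and move further right within the lower-quality group. There miR-17, miR-20a, miR-106a, miR-20b, miR-106b and miR-93 move right as well, so the shift is not particular to the members. In the same group miR-92a, miR-363 and miR-25 move left, and miR-92b was not tested.

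The same libraries were high or low for most members. DLBCL4 and DLBCL6 were both above the other 4 lymphomas for cfa-miR-18a (at least 97.4 against at most 49.0 CPM), cfa-miR-18b (4.62 against 2.78 CPM) and cfa-miR-19a (32.0 against 28.4 CPM). This held for 3 of 4 members and for 16.6% of all miRNAs. It did not hold for cfa-miR-19b, where DLBCL1 at 472 CPM exceeded DLBCL6 at 267 CPM. Among the healthy nodes Healthy5 was highest for 4 of 4 members and for 31.6% of all miRNAs. These 3 libraries also gave the least of their reads to miR-148a within their groups, 29.4% in DLBCL4, 17.8% in DLBCL6 and 51.5% in Healthy5, and had the highest TMM factors of their groups, at 1.75, 2.03 and 1.11. DLBCL3 and DLBCL5, the lowest 2 lymphomas for each member, gave the most to miR-148a among the lymphomas, 39.0% and 38.8%. The part of base quality and of library make-up in these levels was not tested. Without Healthy5 the log2 fold changes were 2.53, 1.97, 3.01 and 1.84 for 18a, 18b, 19a and 19b. Without DLBCL4 they were 1.54, 1.27, 1.27 and 1.43, so that for cfa-miR-19a these 2 libraries moved the estimate over a wide range without giving a call.

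Ratios of 2 members within a library do not depend on the scaling factor and ask whether members changed unequally. For the 6 pairs, the difference between the group means of the log2 ratio was tested by exact permutation of the library labels, two-sided, over 210 splits with a smallest possible p of 0.00476. The largest difference was that of 18a to 18b, whose log2 ratio was 4.62 ± 0.91 (SD) in DLBCL and 3.74 ± 0.59 in healthy nodes, a difference of 0.88 (exact permutation p = 0.133, adjusted p = 0.676 over 6 pairs). For 19a to 19b the difference was 0.26 (exact permutation p = 0.681, adjusted p = 0.724), and for 18a to 19b it was 0.44 (exact permutation p = 0.329, adjusted p = 0.676). The remaining pairs gave 0.18 for 18a to 19a, -0.70 for 18b to 19a and -0.45 for 18b to 19b, with adjusted p of 0.676 to 0.724 by the same exact permutation test. No pair passed, so unequal change of the members was not shown.

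Within groups the ratios varied, and not always more in DLBCL, which had 6 libraries against 4. Healthy nodes held 1.96 to 3.07 reads of 18a per read of 19a, a 1.56-fold range, whereas lymphomas held 1.23 to 7.18, a 5.82-fold range. DLBCL4 and DLBCL3 were the ends of that range, so that the 2 miRNAs, neighbours in 1 cluster, were nearly equal in DLBCL4 and far apart in DLBCL3. For 18b to 19b the range was 3.52-fold in healthy nodes and 11.01-fold in DLBCL. For 18a to 19b the ranges were close, 3.18-fold in healthy nodes and 3.51-fold in DLBCL, and for 19a to 19b the healthy range was the wider, 4.53-fold against 3.86-fold.

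The position of 18b in the miR-106a-363 cluster and of 18a in the miR-17/92 cluster allowed a comparison with the other pairs that are paralogous by name, miR-20b with miR-20a and miR-106a with miR-17. This comparison was chosen after values had been seen and is given as a description. Per 100 reads of 18a, DLBCL1 to DLBCL6 held 2.56, 6.14, 5.32, 4.33, 1.34 and 8.04 reads of 18b, and Healthy2 to Healthy5 held 12.4, 4.76, 7.80 and 6.18. Per 100 reads of miR-20a, the lymphomas held 3.60, 10.02, 14.8, 4.42, 1.33 and 5.97 reads of miR-20b, whereas the healthy nodes held 5.15, 5.35, 5.68 and 5.38. The healthy nodes were thus almost identical in the 20b to 20a ratio, with a coefficient of variation of 4.06%. The lymphomas spread over 11.1-fold on both sides of them. The caveat that reads could move between sequences that are nearly alike applies to this pair too, and its part was not tested. In healthy nodes miR-20b had 324 to 2734 reads, but 18b had only 11 to 82 and miR-106a 6 to 67. Counting error was therefore larger in the 18b and 106a ratios, and whether the pairs differ in spread was not tested. DLBCL5 was the lowest lymphoma in all 3 pairs, with 12.5 reads of miR-106a per 100 of miR-17 against 22.3 to 37.2 in the other lymphomas. Its ratios rest on 6 reads of 18b and 41 of miR-106a, and which arm of the miR-17 hairpin was counted is not stated. For 19a to 19b the order was another: 19a was 3.59 to 13.9 reads per 100 of 19b in DLBCL and 3.85 to 17.4 in healthy nodes, with Healthy5 highest of all 10 libraries.

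**Figure D3:**
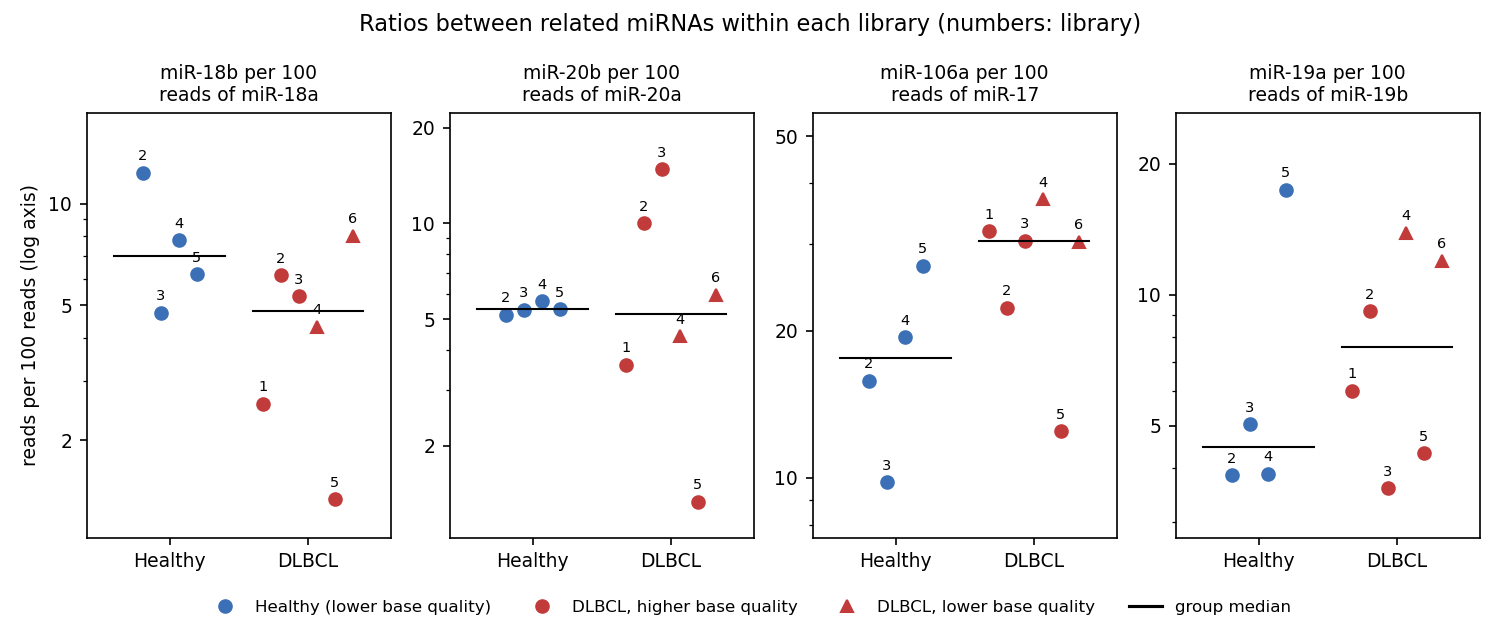
Reads of 1 miRNA per 100 reads of a related miRNA (log axis) in each library, for the pairs 18b and 18a, 20b and 20a, 106a and 17, and 19a and 19b, with healthy in blue, DLBCL in red (triangles, lower base quality) and a line at each group median. The healthy libraries lie together at 5.15 to 5.68 in the 20b panel but not in the others, and DLBCL5 is the lowest lymphoma in the first 3 panels. In healthy libraries the 18b and 106a ratios rest on as few as 11 and 6 reads, so counting error adds to their spread.

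The other miRNAs of the same clusters are grouped here by name, since mature sequences were not used. The miR-17 family, with miR-20a, miR-20b and miR-106a, is known for repressing the cell cycle inhibitor CDKN1A, and the miR-92 family holds miR-92a and miR-363. The table lists a miR-17 without saying which arm of its hairpin was counted, so its family is not assigned here. All 6 of these partners had log2 fold changes above 1, as had 27.1% of all miRNAs, and 1 of the 6 was called higher, beside 3.64% of all. The called partner was miR-363, at 2.14 (SE 0.49; edgeR adjusted p = 0.0397). Next came miR-92a at 1.81 (SE 0.50, adjusted p = 0.0565) and miR-20a at 1.95 (SE 0.59, adjusted p = 0.0806), while miR-17, miR-106a and miR-20b were at 1.61, 2.16 and 2.03 with adjusted p of 0.109 to 0.128. The member fold changes of 1.41 to 1.96 thus lay in or just under the range of their partners. For miR-92a and miR-363 every lymphoma was above every healthy node, as for 6.88% of all miRNAs. The third, related cluster gave 1.01 for miR-106b, 1.247 for miR-93 and 1.20 for miR-25, none called, and the relative miR-92b was at 2.20 (adjusted p = 0.121).

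Cluster mates were present in unequal amounts, and the inequality differed between libraries. The members made up 0.321% (DLBCL3) to 5.33% (DLBCL4) of the reads of the 10 listed cluster miRNAs in lymphomas, and 1.40% to 3.71% in healthy nodes. Per read of 19b there were 5.94 reads of miR-92a in DLBCL4 but 197 in DLBCL3, with a median of 12.6 in DLBCL, and 9.49 to 34.9 in healthy nodes. The proportion of miR-20a to 18a varied less within DLBCL, at 45.5 to 60.4 reads of miR-20a per read of 18a, and was 38.3 to 70.7 in healthy nodes. DLBCL3 shows the difference most plainly. It was the lowest lymphoma for 18a, 19a, 19b and miR-20a (845 CPM), but the highest for miR-92a (14163 CPM) and miR-25 (23024 CPM).

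To describe this over all libraries, each log2 CPM was set against the mean of its own group, and Pearson's r of these deviations was taken over the 10 libraries for each member against the 246 other miRNAs tested. The points share libraries, depth and scaling, and the median r over all others was 0.14 to 0.21, so these values are descriptions without a p. Most like cfa-miR-18a were miR-20a (r = 0.97), miR-33a (0.97) and miR-374a (0.96). Most like cfa-miR-19a were miR-20a (0.98), miR-153 (0.97) and miR-93 (0.96). For cfa-miR-19b they were cfa-miR-19a (0.92), miR-26b (0.92) and miR-153 (0.91). For cfa-miR-18b they were miR-190a (0.97), miR-15a (0.91) and miR-497 (0.91), with miR-20b of its own cluster at 0.88 and cfa-miR-18a at 0.80. Only part of the nearest miRNAs were cluster mates. The miR-20a rank order over the 6 lymphomas was that of 18a and of 19a without exception.

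Over the 10 libraries together, r of the members was negative with miR-92a and miR-25 of the miR-92 seed family. With miR-92a, r was -0.63 for 18a, -0.54 for 18b, -0.64 for 19a and -0.48 for 19b. With miR-25 it was -0.58 to -0.75, and with miR-363 between -0.19 and 0.12. These values cover lymphomas and healthy nodes together, and DLBCL1 was second highest among lymphomas for both 19b and miR-92a. In DLBCL3, the deviation was -1.4 for 18a, -0.9 for 18b, -2.7 for 19a and -1.7 for 19b, beside 1.6 for miR-92a. DLBCL3 held the largest deviation of all 10 libraries for both miR-92a and miR-25. In DLBCL4, DLBCL6 and Healthy5 the members were above, and miR-92a and miR-25 below, their group means. How far the negative r values rest on DLBCL3 was not tested, since r without it was not taken.

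**Figure D4:**
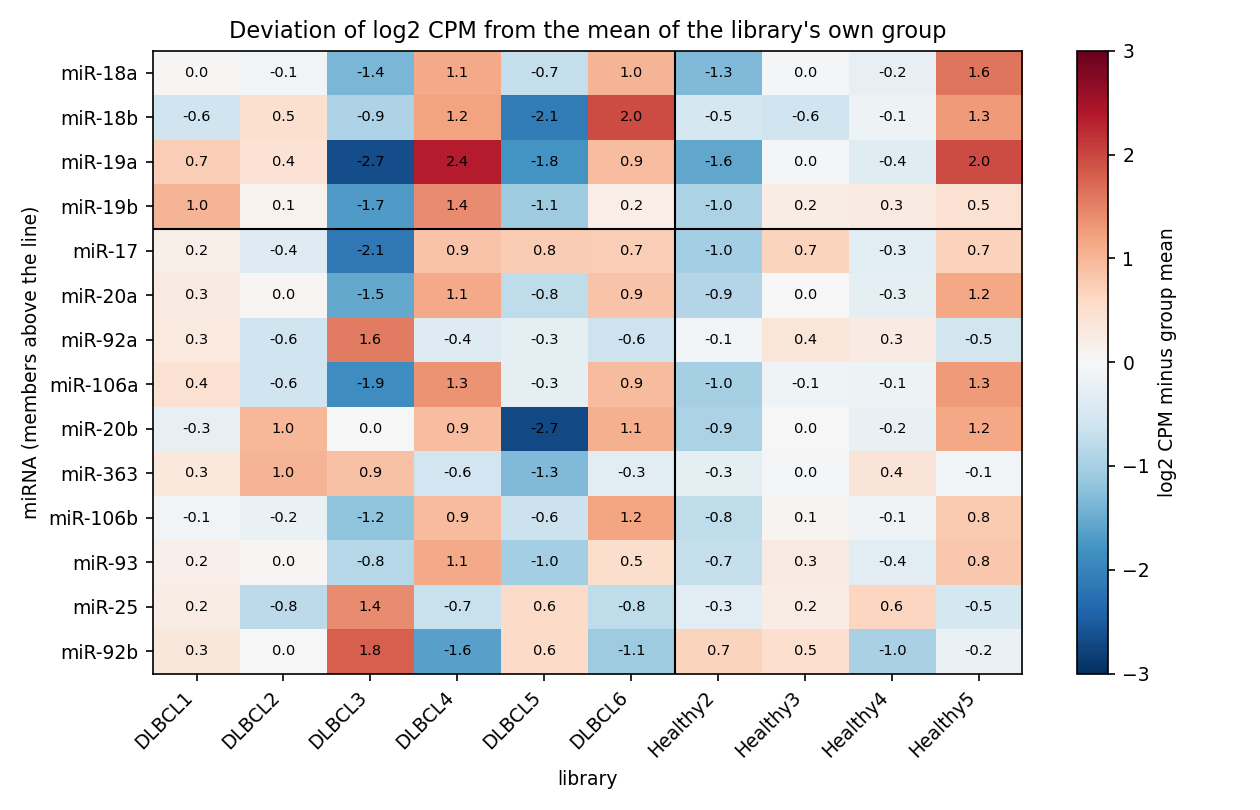
Deviation of log2 CPM from the mean of the library's own group (colour scale and printed values) for the 4 members (top rows) and 10 related miRNAs in the 10 libraries. Members, miR-20a, miR-106a, miR-106b and miR-93 are above their group mean in DLBCL4, DLBCL6 and Healthy5 and below it in DLBCL3, where miR-92a, miR-25 and miR-92b are at 1.6, 1.4 and 1.8.

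Lists of miRNAs that mark cell types were summed in CPM to describe what the nodes held. The lymphoid and blood list, miR-142, miR-150, miR-155 and miR-181a, was found complete at 9075 to 22384 CPM in DLBCL and 14184 to 29987 CPM in healthy nodes. The markers of the labelled tissue were thus present. Of the 4, miR-150, which falls as lymphocytes become activated, was called lower at -2.97 (SE 0.50, edgeR adjusted p = 0.00687). The others went both ways and were not called, with miR-142 at 0.22, miR-155 at 0.44 and miR-181a at -1.49. Over all 247 miRNAs 14 were called in either direction, 9 of them higher. The pair that marks resting lymphocytes, miR-150 and miR-342, summed to 615 to 1802 CPM in DLBCL and 3503 to 15356 CPM in healthy nodes. Nearly all of that sum was miR-150. Alone, miR-342 overlapped between the groups, at 62.6 to 129 CPM in DLBCL and 95.6 to 178 CPM in healthy nodes. It was not called, at -0.77 (SE 0.39, edgeR adjusted p = 0.223). Among red blood cell miRNAs 3 of 4 were called higher, miR-451, miR-486 and miR-486-3p, beside 3.64% of all miRNAs, though the last 2 had almost the same counts (21584 and 21564 reads in DLBCL1) and are hardly separate. The sum of the list was 5740 to 48886 CPM in DLBCL against 873 to 1278 CPM in healthy nodes. The exocrine pancreas list was at 17.5 to 662 CPM in DLBCL and 914 to 1950 CPM in healthy nodes, with 0 of 3 called. The myeloid marker miR-223 was at 3.95 to 88.3 CPM and 16.9 to 38.6 CPM, and the 5 stromal and vessel miRNAs at 18867 to 70627 CPM and 26911 to 55304 CPM, with none called. Skeletal muscle miRNAs summed to 9.42 to 360 CPM and 16.3 to 76.5 CPM, and epithelial miRNAs to 18.996 to 203 CPM and 22.4 to 37.0 CPM. Of these, miR-133b, miR-200a, miR-200b, miR-429 and miR-205 were at 0 in at least 1 library. The part of these cell types in the levels of the miR-18 and miR-19 members was not tested.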

How the data were processed

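Small RNA libraries of 6 DLBCL and 4 healthy canine lymph nodes were prepared with the NEBNext small RNA kit. The authors deposited whole-number counts of reads per mature miRNA of 320 miRNAs, and beside them TPM values that the authors had derived from the counts. Per the submitters' processing notes, Bowtie 0.12.9 and CanFam3.1 were used. Deposited TPM differed from counts scaled in the same way over the listed reads by at most 4.55e-05.

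Counts were analysed in R 4.3.3 with edgeR 4.0.16 (TMM, filterByExpr, quasi-likelihood F test, Benjamini-Hochberg adjustment over 247 miRNAs). The thresholds were an adjusted p of 0.05 and an absolute log2 fold change of 1. Ratios of members used counts with 0.5 added and exact permutation tests. DESeq2 1.42.0, limma 3.58.1 (weighted voom, and a trend fit on log2 of TPM plus 1), other scalings and filters, base quality as covariate or stratum, and omission of each library were alternatives. Python 3.11.15 with scipy 1.17.1 was used for member statistics. Total reads per library bound the precision: 3 reads, the limit that a count of 0 allows, corresponded to 0.0743 to 0.251 CPM. No library was a copy of another.

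Named miRNAs were the members, the other miRNAs of the 3 related clusters with miR-92b, the 3 miRNAs most like each member, and those of the cell type lists. The rule also asked for other miRNAs sharing a member's seed, which was not applied because mature sequences were not used here. Members and lists were chosen with earlier results of these data known. Gene neighbours came from RefSeq (UU_Cfam_GSD_1.0), and no coordinates are given because this build differs from that of the files.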

Additional observations from a re-analysis of the deposited data

Results flagged for a closer look

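Within each group the highest and the lowest value were compared with the others by Dixon's criterion, over 20 groups of values. Chance marks about 1 in 20 where values are normally spread. Levels entered as CPM and ratios as log2. The criterion was not applied to log2 levels, so the marks on levels may depend on the scale. The criterion marked 3. The level of cfa-miR-18b in Healthy5 was 2.40 CPM, where the next healthy node had 0.840 CPM, and the gap was 0.861 of the range, past the critical value for 4 values. The level of cfa-miR-19a in DLBCL4 was 86.4 CPM, where the next lymphoma had 32.0 CPM, a gap of 0.650 of the range, past that for 6 values. The log2 ratio of 18a to 19b in Healthy5 was -1.55, where the nearest healthy node had -2.98, a gap of 0.862 of the range, also past it. Without Healthy5 the log2 fold change of cfa-miR-18b was 1.97 (edgeR adjusted p = 0.217), and without DLBCL4 that of cfa-miR-19a was 1.27 (edgeR adjusted p = 0.336).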

How the results depend on the processing

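All 4 members had positive log2 fold changes under each alternative run. No value could be had for cfa-miR-18b when at least 10 reads were required in every library, since DLBCL5 had 6. Calls were gained with DESeq2 (18a 1.82, 19b 1.80), with limma voom (18a 2.16, 19a 2.31, 19b 1.75) and within the lower base quality group (18a 2.59, 18b 2.45, 19a 2.95, 19b 2.32). With base quality as a covariate, which leaves the same contrast of lymphomas with healthy nodes, the estimates were 2.60, 2.47, 2.96 and 2.33. None was called (edgeR adjusted p of 0.0819 to 0.148). Leaving out 1 library gave 1.44 to 2.53 for 18a, 0.87 to 1.97 for 18b, 1.27 to 3.01 for 19a and 1.43 to 1.999 for 19b, which was called without DLBCL3 (edgeR adjusted p = 0.0387). Scaling to total miRNA reads gave 2.50, 2.33, 2.68 and 2.57. The number of miRNAs called was 14. It was 8 with DESeq2 size factors, 23 with total miRNA reads, 45 with DESeq2, 46 with limma voom, 7 with the covariate, 46 within the lower-quality group and 1 (without Healthy4) to 23 (without DLBCL4) on leaving out 1 library. The cause was not tested. The difference in the 18a to 19a log2 ratio changed sign on leaving out 1 library, over -0.085 (without DLBCL3) to 0.42, and was -0.037 without DLBCL5. Within the lower base quality group it was -0.38, and that of 18b to 19b turned to 0.36. The other 4 ratios kept their sign, and no ratio passed on leaving out 1 library or with 0 or 5 reads added.

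The groups share library numbers 2 to 5, but same-numbered libraries did not deviate together (correlations 0.26, -0.01, -0.30 and -0.33), so the numbers do not pair the dogs. With a replicate block the members were at 1.68, 0.90, 1.34 and 1.18, none called, and the number of miRNAs called was 1. Depth limits cfa-miR-18b most, whose counting error reached 40.8% in DLBCL5 and was 5.63% in DLBCL6.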
